A study of Homo sapiens with 4 samples.

Results

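Genes of the fibroblast growth factor (FGF) pathway were followed in human embryoid bodies: 5 ligand genes (FGF2, FGF4, FGF8, FGF17 and FGF19), 4 receptor genes (FGFR1, FGFR2, FGFR3 and FGFR4) and DUSP6, a feedback gene of the pathway. They were taken by name, as every probeset, a short run of probes inside 1 exon, to which the platform annotation gives one of these symbols and no other. All 10 were found, on 134 of the 218927 named probesets, and they make up 10 of the 18640 genes measured. The names in the files were current for all 10. The embryoid bodies, aggregates in which stem cells begin to differentiate, came from BG01V, an established line of human embryonic stem cells whose karyotype is abnormal. The DMSO group held 2 arrays of embryoid bodies given the vehicle, and the TBBD group held 2 arrays of embryoid bodies given 10 µM TBBD. Both groups were treated for 48 h, usually within day 2 to day 4 of embryoid body formation. The series title names TBBD as an inhibitor of methylation on an arginine of histone H3, so the comparison asks how expression responds to it. All 4 arrays share the line and the culture protocol, and the labels number the arrays of each group as replicate 1 and replicate 2 without saying whether they came from separate cultures. The p-values therefore measure only the spread between these samples, which may be technical.

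FGF ligands are mostly secreted proteins that bind receptor tyrosine kinases, with heparan sulphate or a Klotho protein as partner, and drive the RAS, MEK and ERK kinases. ERK signalling switches on its own brakes, among them the Sprouty proteins and DUSP6, a phosphatase that takes the activating phosphates off ERK. Human embryonic stem cells depend on FGF2, while FGF4, FGF8 and FGF17 are known from pluripotent cells and the gastrulating embryo.

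The treatment left no difference that passed the test in any of the 10 genes, whereas 2 of them differed between the replicate numbers. The signal of FGF19 was 3.48-fold lower and that of FGFR2 1.59-fold higher on the replicate 2 arrays than on the replicate 1 arrays, and both passed the test. On the replicate 2 arrays FGF19 lay near background, so its fold may be a lower bound. FGF2, FGF4 and FGFR1 were lower on both replicate 2 arrays without passing it. DUSP6 was higher with TBBD in both replicate numbers, by 0.18 and 0.17 on the log2 scale, which did not pass the test either. In bulk RNA of embryoid bodies, fewer cells of a type and less RNA per cell cannot be told apart.

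Signals come from RMA and are in log2 units, so a difference of 1 is a doubling, and a gene's level is the mean over its probesets. Median probeset levels were between 6.39 and 6.42 on the 4 arrays. No detection call was used. As a rough reference, 348 olfactory receptor genes, which these cells should not express, centred on a median of 5.40 and a 95th percentile of 5.66. FGF8, at a mean of 5.68 over the arrays, lay nearest to that percentile, and none of the 10 genes had a mean over the 4 arrays below it. On the replicate 2 arrays alone FGF19 had a mean of 5.58, below the percentile, so there its level was not clearly above background. The same holds for FGF8 on the replicate 1 arrays, with a mean of 5.635. Probes differ in brightness, so levels of different genes are not read as amounts of RNA. Of the stem cell markers 11 of the 12 listed were measured, and PODXL, a surface glycoprotein, and LIN28A, an RNA-binding protein of stem cells, gave the brightest signals among them, between 9.08 and 11.16 on every array.

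**Figure D1:**
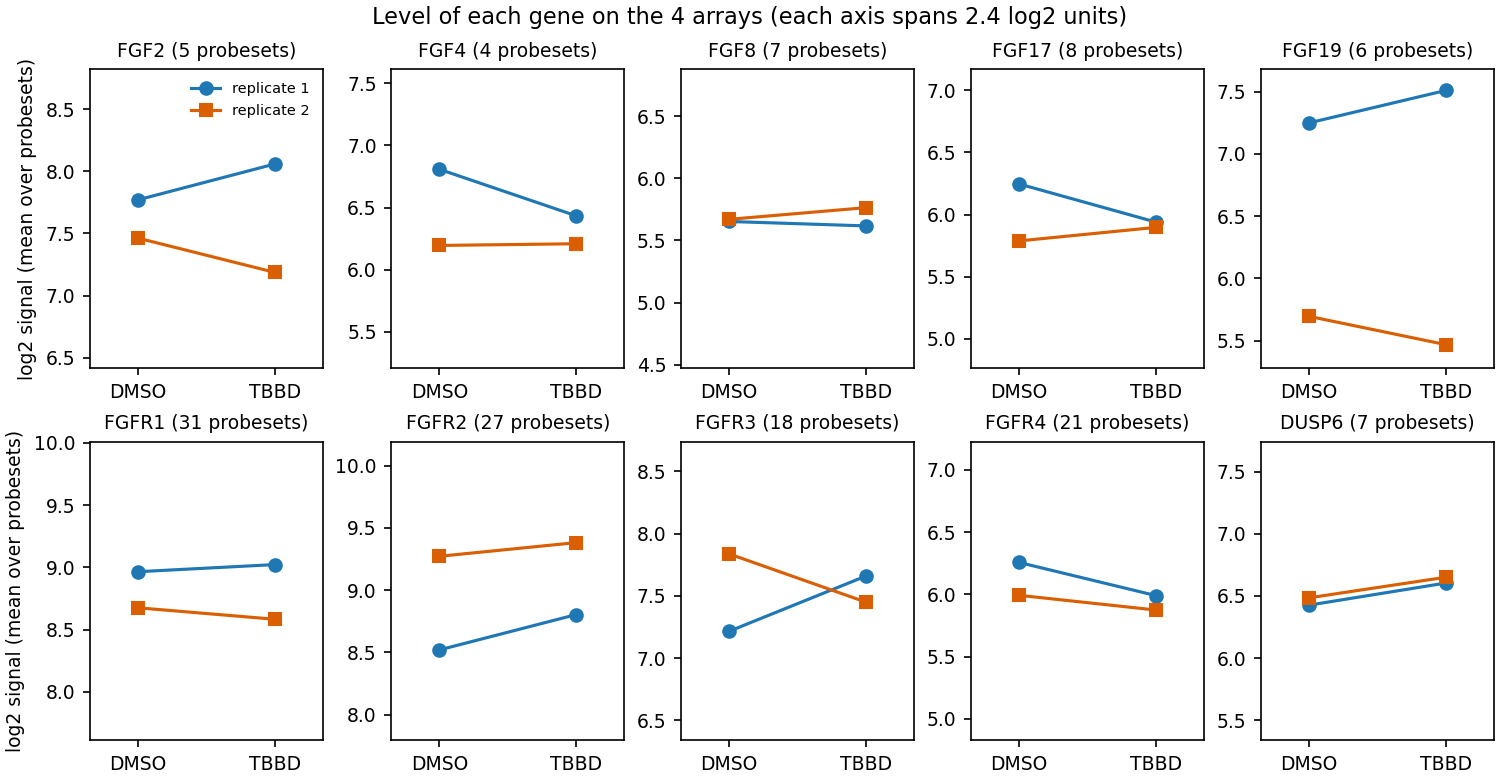
Level of each of the 10 genes (y axis, log2 signal, mean over its probesets) with DMSO and with TBBD (x axis). Points are single arrays, and lines join the arrays of one replicate number. FGF19 is high on both replicate 1 arrays (7.25 and 7.51) and low on both replicate 2 arrays (5.70 and 5.47), while DUSP6 moves up alike in both numbers.

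TBBD was first set against DMSO. With limma and Benjamini-Hochberg adjustment over all genes, 0 of the 10 genes had an adjusted p under 0.05, and the smallest was 1. The same test called 0% of all genes. At an unadjusted p under 0.05 there were again 0 of the 10, against 0.746% of all genes, and the unadjusted limma p-values of the 10 lay between 0.184 and 0.984. The log2 differences had a median of 0.012 over the 10 genes, 6 higher and 4 lower with TBBD, beside a median of -0.0035 over all genes. A permutation test of 2 arrays against 2 cannot go below a two-sided p of 0.333. The 95% confidence intervals of the differences had half-widths from 0.29 for DUSP6 to 2.10 for FGF19. A difference as large as its half-width has an unadjusted limma p of 0.05, so a call after adjustment over all genes would need a larger one. For FGF19 the standard error was 0.82 in this fit, which also holds the difference between the replicate numbers, and 0.15 with the number as a second term. With that term 2.66% of all genes had an unadjusted limma p under 0.05, and 0 of the 10 did. The group fit is thus wide for genes that differ between the numbers, and 0 of 10 does not show absence of a response.

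Among the ligands, FGF2, the factor that maintains human stem cells in culture, had log2 levels of 7.77 and 7.46 on DMSO replicates 1 and 2 and of 8.06 and 7.19 on TBBD replicates 1 and 2. The TBBD arrays were thus the highest and the lowest of the 4. TBBD minus DMSO was 0.29 in replicate 1 and -0.28 in replicate 2, with a mean of 0.0064 ± 0.31 (SE). FGF19, a ligand that acts mainly through FGFR4 and the co-receptor KLB, showed the same arrangement. Its levels were 7.25 and 5.70 with DMSO and 7.51 and 5.47 with TBBD, which gave 0.26 in replicate 1, -0.23 in replicate 2 and a mean of 0.017 ± 0.82 (SE).

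FGF4, a ligand of pluripotent cells and a target of OCT4 and SOX2, had levels of 6.81 and 6.20 with DMSO and of 6.43 and 6.21 with TBBD. DMSO replicate 1 was the highest of the 4 arrays. TBBD minus DMSO was -0.37 in replicate 1 and 0.014 in replicate 2, and the mean was -0.18 ± 0.23 (SE). FGF17, a relative of FGF8 expressed around gastrulation, repeated this shape, with levels of 6.25 and 5.79 on the DMSO arrays and of 5.94 and 5.90 on the TBBD arrays. Its differences were -0.31 in replicate 1 and 0.11 in replicate 2, with a mean of -0.099 ± 0.18 (SE). FGF8, which patterns the early mesoderm and the brain, was flat and close to background. Its levels were 5.65 and 5.67 with DMSO and 5.62 and 5.76 with TBBD. Its mean difference was 0.029 ± 0.12 (SE). In all 5 ligands TBBD minus DMSO had opposite signs in the 2 replicate numbers, beside 55.5% of all genes. Some of these signs rest on very small differences, such as 0.014 for FGF4 in replicate 2 and -0.036 for FGF8 in replicate 1.

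Of the 4 receptors, 2 had opposite signs in the replicate numbers. FGFR1, the receptor through which FGF2 acts in stem cells, had levels of 8.96 and 8.67 with DMSO and of 9.02 and 8.58 with TBBD. TBBD minus DMSO was 0.057 in replicate 1 and -0.092 in replicate 2, and the 95% confidence interval of the mean difference ran from -0.53 to 0.49. FGFR2, a receptor with an epithelial and a mesenchymal splice form, had levels of 8.52 and 9.27 with DMSO and of 8.80 and 9.38 with TBBD. It was higher with TBBD in both numbers, by 0.28 and 0.11, yet the groups overlapped because DMSO replicate 2 exceeded TBBD replicate 1. The mean difference of FGFR2 was 0.20 ± 0.32 (SE), with an unadjusted limma p of 0.564, and 0.42 with the median over probesets. Of its 27 probesets, 17 were higher with TBBD in both numbers and 2 were lower in both.

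FGFR3, a receptor of cartilage and neural progenitors, had the widest disagreement between the numbers. Its levels were 7.22 and 7.84 with DMSO and 7.66 and 7.45 with TBBD, so the DMSO arrays enclosed the TBBD arrays. TBBD minus DMSO was 0.44 in replicate 1 and -0.39 in replicate 2, a difference of -0.83 between the numbers that has no residual degrees of freedom and was not tested. The disagreement ran through the gene, as 16 of 18 probesets were higher with TBBD in replicate 1 and 14 were lower in replicate 2. FGFR4, the receptor of liver and endoderm, was lower with TBBD in both numbers, at -0.27 and -0.12. Its levels of 6.26 and 5.99 with DMSO and of 5.99 and 5.87 with TBBD did not overlap, although DMSO replicate 2 and TBBD replicate 1 were nearly equal. One of its 21 probesets stood at -2.22, and if the probesets are summarised by their median, the difference of FGFR4 was 0.019 instead of -0.19 ± 0.14 (SE).

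DUSP6, the ERK phosphatase and a usual readout of FGF signalling, had the smallest limma p of the 10 genes in the group fit, 0.184 unadjusted. With the replicate number as a second term its unadjusted limma p was 0.176, and those of FGFR2 and FGFR4 were smaller, at 0.141 and 0.145. Its levels were 6.43 and 6.48 with DMSO and 6.60 and 6.65 with TBBD. Both TBBD arrays lay above both DMSO arrays, as did those of 10.5% of all genes. TBBD minus DMSO was 0.18 in replicate 1 and 0.17 in replicate 2, and the mean of 0.17 ± 0.11 (SE) had a 95% confidence interval from -0.12 to 0.46. Of its 7 probesets, 5 were higher with TBBD in both numbers and 0 were lower in both. Leaving out 1 array moved the difference between 0.14 and 0.20. The 2 genes whose groups did not overlap, DUSP6 and FGFR4, are 2 of 10, beside 20.9% of all genes.

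**Figure D2:**
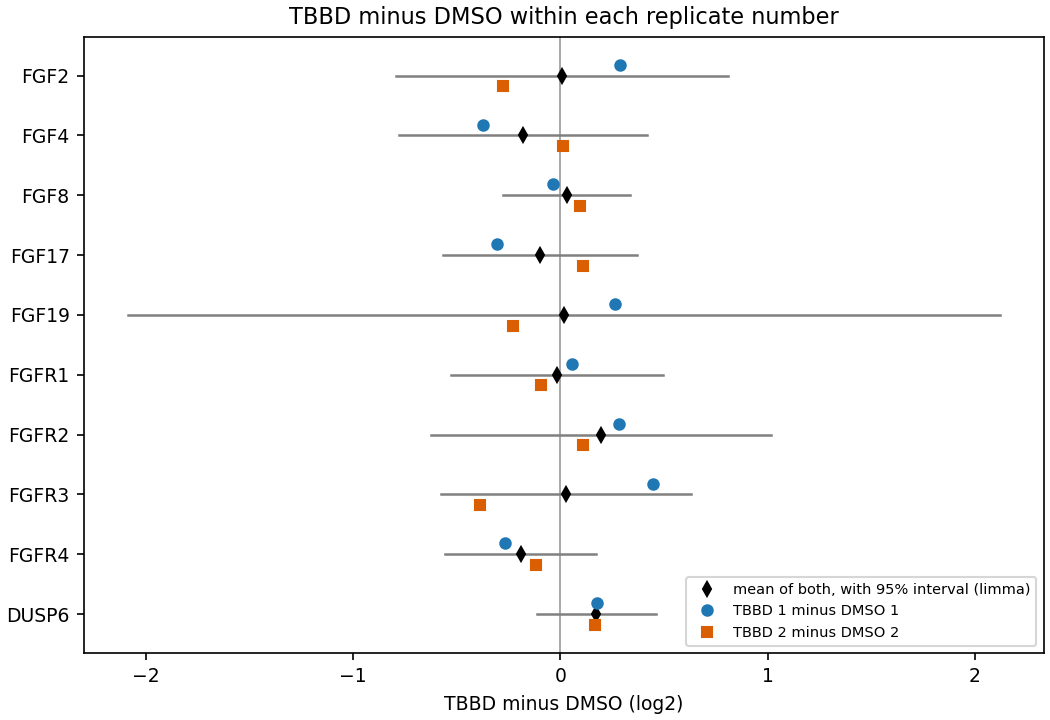
TBBD minus DMSO (x axis, log2) for each gene (y axis) in replicate 1 (circles), in replicate 2 (squares) and as the mean of both (diamonds) with limma's 95% confidence interval (lines). Every interval crosses 0. The circles and squares lie on opposite sides of 0 for 7 genes and on one side for FGFR2, FGFR4 and DUSP6.

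The sign of TBBD minus DMSO was opposite in the 2 numbers for 7 of the 10 genes, beside 55.5% of all genes. Over the 10 genes its median was 0.12 in replicate 1 and -0.039 in replicate 2, against -0.021 and 0.012 over all genes. These shares lie near those of all genes and show nothing particular to the FGF genes.

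The replicate numbers were then compared, with the 2 replicate 2 arrays set against the 2 replicate 1 arrays in limma. Each number held a DMSO and a TBBD array, so the spread within a number also holds any difference between the treatments. FGF19 and FGFR2 passed the adjusted threshold, 1 lower and 1 higher on the replicate 2 arrays, and the other 8 did not. That is 2 of 10, where the same test called 5.37% of all genes, 3.35% higher and 2.02% lower. At an adjusted p under 0.1 there were 4 of 10, with FGF2 and FGFR1 added, beside 9.65% of all genes. The looser criterion of at least a 1.5-fold difference and an unadjusted p under 0.05 held 3 of 10, FGF2, FGF19 and FGFR2, beside 4.41%. The median log2 difference was -0.22 over the 10 genes, 6 lower and 4 higher, and -0.0024 over all genes. The arrays of the 2 numbers did not overlap for 7 of the 10, beside 51.0% of all genes. What the numbers stand for is not in the labels, so culture, day and handling cannot be told apart.

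FGF19 differed most, at -1.80 ± 0.13 (SE) on the log2 scale, with a 95% confidence interval from -2.11 to -1.49 and a limma adjusted p of 0.00106. The difference was -1.55 between the DMSO arrays, a 2.93-fold lower signal, and -2.04 between the TBBD arrays, a 4.12-fold lower one. Both folds may be lower bounds, since DMSO replicate 2 at 5.70 and TBBD replicate 2 at 5.47 lay close to the 95th percentile of the olfactory receptor genes, 5.66. Only 6 of the 18640 genes, FGF19 included, were lower on the replicate 2 arrays by as much. All 6 of its probesets were lower, with differences from -3.21 to -0.78. The brightest probeset read 8.98 and 9.24 on DMSO and TBBD replicate 1 and 6.03 and 5.77 on DMSO and TBBD replicate 2. The dimmest, at a mean of 5.00, lay under the olfactory receptor probeset median of 5.40, and it also differed least. Leaving out any single array kept FGF19 between -1.93 and -1.67, with limma adjusted p-values from 0.000622 to 0.00822.

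FGF2 was lower on the replicate 2 arrays, at -0.31 with DMSO and -0.87 with TBBD. Its mean of -0.59 ± 0.14 (SE) did not pass the adjusted threshold in limma (adjusted p = 0.061). It did pass where dim genes or genes with few probesets were left out of the test (limma adjusted p = 0.0391 and 0.0421). Of its 5 probesets 4 were lower, down to -1.23, and the brightest was higher by 0.19. A further 2 probesets that the annotation gives to both FGF2 and NUDT6, the gene on the opposite strand, were not used. FGF4 differed by -0.42 ± 0.14 (SE) (limma adjusted p = 0.139), and its 4 probesets were all lower. Most of this came from 2 probesets at -0.51 and -1.04, since the 2 brighter ones stood at -0.072 and -0.046. FGF17 at -0.25 ± 0.13 (SE) had 7 of 8 probesets lower. FGF8 at 0.082 ± 0.099 (SE) had 4 lower and 3 higher, and its sign turned to -0.10 with the median over probesets.

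**Figure D3:**
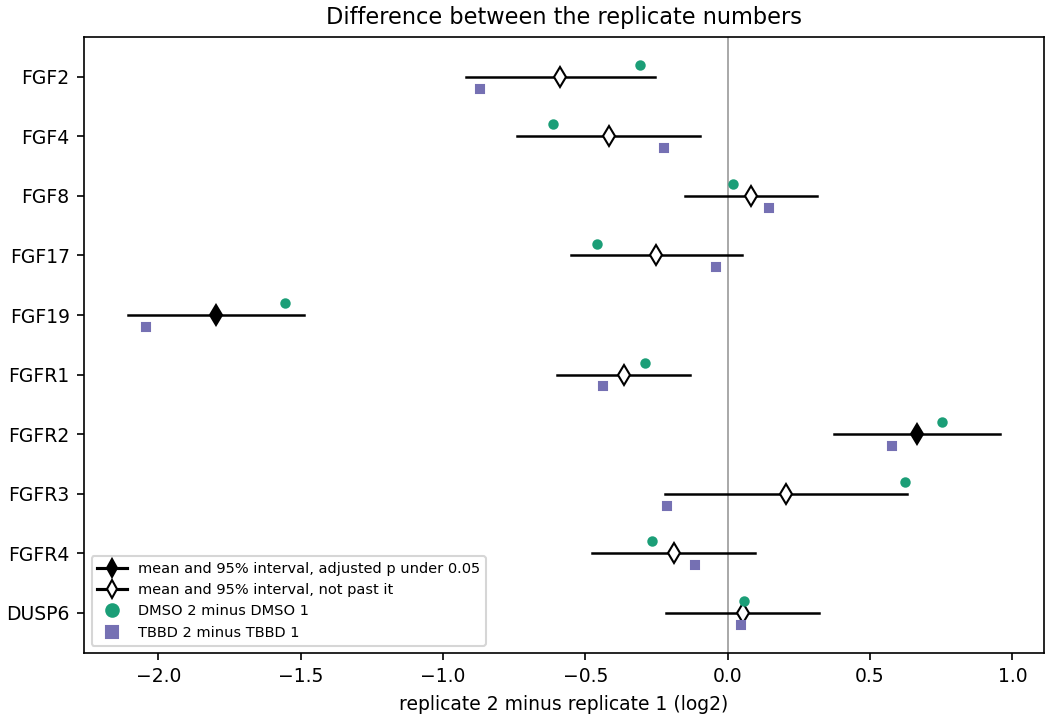
Replicate 2 minus replicate 1 (x axis, log2) for each gene (y axis). Diamonds and lines are the mean and limma's 95% confidence interval, filled where the adjusted p is under 0.05 (FGF19 and FGFR2), and the small circles and squares are the differences between the DMSO arrays and between the TBBD arrays. FGF19 at -1.80 lies far from the other genes, which run from -0.59 to 0.67.

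The receptors went different ways between the numbers. FGFR2 was higher on the replicate 2 arrays by 0.75 with DMSO and by 0.58 with TBBD, and its mean of 0.67 ± 0.12 (SE) passed in limma (adjusted p = 0.029). With the median over probesets it was 1.04 (limma adjusted p = 0.0304). Among all genes 2.16% were higher by as much. Of its 27 probesets 24 were higher, and the 13 brightest were all higher, by between 0.66 and 1.17. Its 3 lower probesets were among the 5 dimmest. The call of FGFR2 was lost without DMSO replicate 1 (limma adjusted p = 0.0946), without DMSO replicate 2 (limma adjusted p = 0.0515) and without TBBD replicate 2 (limma adjusted p = 0.128), while the difference stayed between 0.52 and 0.81.

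FGFR1 lay the other way, at -0.36 ± 0.10 (SE), with a limma adjusted p of 0.0881. It stood at -0.29 between the DMSO arrays and at -0.44 between the TBBD arrays, and 28 of its 31 probesets were lower. FGFR3 had no common direction, at 0.62 between the DMSO arrays and -0.21 between the TBBD arrays, although 15 of its 18 probesets were higher on average. FGFR4 differed by -0.19 ± 0.12 (SE), with 14 of 21 probesets lower. DUSP6 hardly differed between the numbers, at 0.053 ± 0.11 (SE), with an interval from -0.22 to 0.32, and its sign turned with the median over probesets (-0.14).

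**Figure D4:**
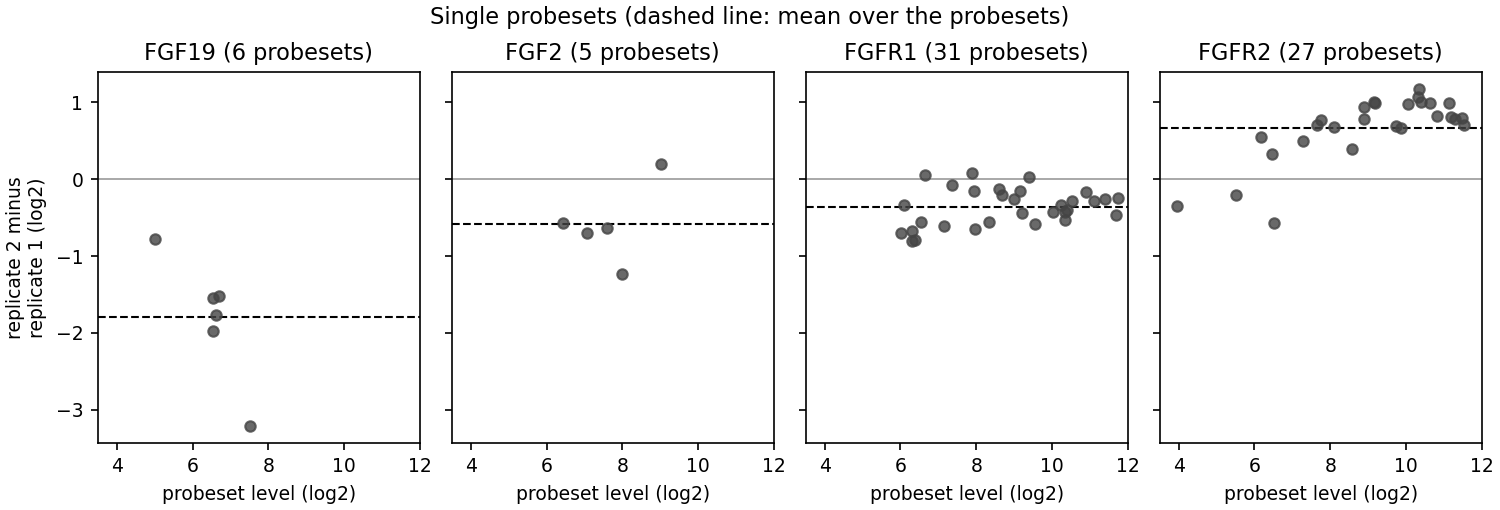
Single probesets of FGF19, FGF2, FGFR1 and FGFR2, with the mean level over the 4 arrays (x axis, log2) and replicate 2 minus replicate 1 (y axis, log2). Dashed lines are the means over the probesets. All 6 probesets of FGF19 lie below 0 and 24 of the 27 of FGFR2 lie above 0.

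Tested one by one, 0 of the 134 probesets passed limma's adjusted threshold for either comparison, and neither did any of the 247035 probesets (0% in both). The lowest adjusted p among the FGF19 probesets between the numbers was 0.0747. The probesets of one gene differed widely in level. They ran from 3.95 to 11.52 for FGFR2, from 6.02 to 11.75 for FGFR1 and from 4.49 to 8.82 for FGF17.

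Other genes of the pathway were read from lists chosen with earlier results of the series known. TBBD minus DMSO passed the test for 0 of the 13 other secreted ligands, 0 of the 4 FGF homologous factors, 0 of 14 measured co-receptor and signal relay genes and 0 of 20 feedback and ERK response genes. In these lists 0 genes had an unadjusted limma p under 0.05. With the replicate number as a second term 3 did, all feedback and ERK response genes, where 2.66% of all genes did: ETV1, IL17RD and ETV4 had unadjusted limma p-values of 0.0398, 0.0257 and 0.0128, and an adjusted p of 1 each. Without that term the smallest limma p was 0.0777, for ETV1, an ETS transcription factor downstream of ERK, at -0.28 in replicate 1 and -0.29 in replicate 2. IL17RD, a membrane inhibitor of FGF receptor signalling, stood at -0.42 in replicate 1 and -0.25 in replicate 2. Its levels were 7.24 and 6.78 with DMSO and 6.82 and 6.53 with TBBD, so the groups overlapped.

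The remaining genes nearest to the test in their lists were small in difference. Among the ligands, FGF20 stood at 0.16 ± 0.12 (SE) and FGF6 at 0.20 ± 0.14 with TBBD. The mean level of FGF6 was 5.66, at the 95th percentile of the olfactory receptors. Of the homologous factors, which stay inside the cell and bind sodium channels, FGF13 stood at -0.087 ± 0.18 (SE) and FGF14 at -0.070 ± 0.13. The mean level of FGF14, 5.13, lay below the olfactory receptor median of 5.40. Of the adaptors that link the receptors to RAS, GRB2 stood at -0.18 ± 0.16 (SE) and SHC1 at 0.11 ± 0.12. The list medians were 0.11 for the other ligands, -0.035 for the homologous factors, -0.0082 for the relay genes and -0.073 for the feedback genes.

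Between the replicate numbers, 3 of the 20 feedback and ERK response genes were higher on the replicate 2 arrays and 0 lower past limma's threshold, beside 3.35% and 2.02% of all genes. EGR1, an immediate early transcription factor, had levels of 6.67 and 6.83 on DMSO and TBBD replicate 1 and of 7.78 and 7.75 on DMSO and TBBD replicate 2. The difference of EGR1 was 1.01 ± 0.10 (SE) (limma adjusted p = 0.00371). FOS, another immediate early gene, was higher by 0.85 ± 0.098 (SE) (limma adjusted p = 0.00577), and DUSP7, an ERK phosphatase of the same family as DUSP6, by 0.67 ± 0.11 (SE) (limma adjusted p = 0.0202). Over the whole list 13 genes were lower and 7 higher, and the median was -0.16.

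SPRY4, a Sprouty inhibitor, and ETV4, an ETS factor, both ERK-induced, are named after their values were seen. SPRY4 read 8.17 and 6.91 with DMSO and 7.46 and 6.88 with TBBD, and ETV4 read 7.79 and 6.74 with DMSO and 7.14 and 6.49 with TBBD. Both were highest on DMSO replicate 1. Replicate 2 minus replicate 1 was -0.92 ± 0.21 (SE) for SPRY4 and -0.85 ± 0.21 (SE) for ETV4, just short of limma's threshold (adjusted p = 0.0518 and 0.0616). With the treatment as a second term of the fit, both passed (limma adjusted p = 0.0391 and 0.0237), among 653 of the 18640 genes that did. As both genes were picked from these same values, their passing there is a description only.

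In the other lists 0 genes passed between the numbers: 0 of 13 other ligands, 0 of 4 homologous factors and 0 of 14 relay genes. FGF10, a ligand of branching organs, stood at -0.65 ± 0.25 (SE), but its level of 6.97 on TBBD replicate 1 was far from the 5.79 to 6.12 of the other arrays. FGF9 stood at -0.31 ± 0.10 (SE). Its mean level of 5.58 lay below the 95th percentile of the olfactory receptors, 5.66, as did those of 5 of the 13 other ligands, FGF9 included. FGFRL1, a receptor without a kinase domain, stood at -0.43 ± 0.11 (SE) and the MEK gene MAP2K1 at -0.38 ± 0.11. KLB, the co-receptor for FGF19, differed by 0.068, with a mean level of 5.46, inside the range of the olfactory receptors.

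Markers of other cell types moved between the numbers as well. Hepatic and visceral endoderm markers were higher on the replicate 2 arrays for 9 of 12 genes past limma's threshold and lower for 0, where 3.35% of all genes were higher and 2.02% lower. Mesenchyme markers were higher for 8 of 12 and lower for 0. Their linear signals summed to 554 and 610 on the replicate 1 arrays with DMSO and TBBD against 1523 and 1920 on the replicate 2 arrays for endoderm, and to 3523 and 4151 against 10763 and 11934 for mesenchyme. The brightest of each list were AFP, the fetal albumin, and the apolipoprotein gene APOA2 at differences of 2.43 and 1.71, and the matrix genes POSTN and LUM at 1.77 and 1.37. Of the 11 stem cell markers 5 were lower and 1 higher, and the summed signal was 6141 and 5538 against 4420 and 3788. Their part in the differences of FGF19, FGFR2, EGR1, FOS and DUSP7 was not tested. Of 348 olfactory receptor genes 2 passed, beside 5.37% of all genes.

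**Figure D5:**
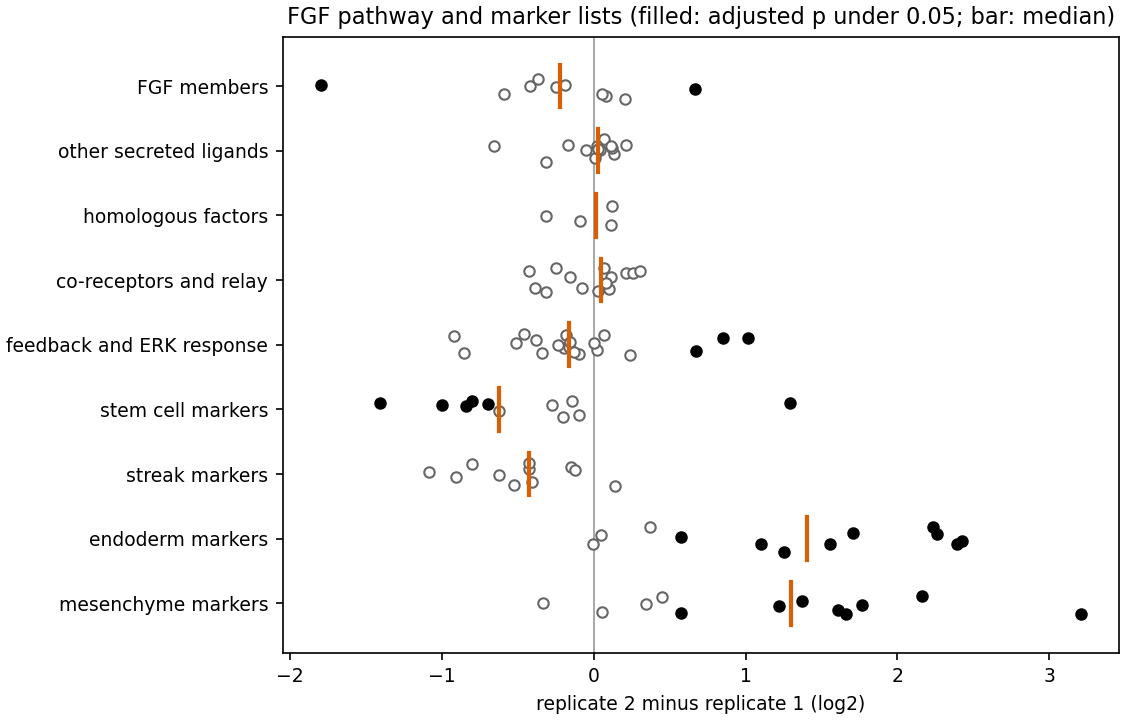
Replicate 2 minus replicate 1 (x axis, log2) for each gene of the FGF lists and of 4 marker lists (y axis, points spread vertically for sight). Filled points passed limma's adjusted threshold of 0.05 and bars are list medians. The FGF lists lie around 0 with single genes apart, while endoderm and mesenchyme markers lie to the right (medians 1.40 and 1.30).

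One array stood apart for part of the pathway. DMSO replicate 1 gave the highest of the 4 values for 12 of the 20 feedback and ERK response genes, SPRY4, ETV4, ETV5, IL17RD and CCND1 among them, and for FGF4, FGF17 and FGFR4 of the 10 FGF genes, or 30.0%. Over all genes this share was 29.2%. The same array was highest for 10 of 11 primitive streak markers, among them TBXT, or brachyury, and the Wnt ligand gene WNT3, whose levels were 7.87 and 8.29 there and at most 6.89 and 7.55 elsewhere. The summed linear signal of the streak markers was 1697 on DMSO replicate 1, 871 on DMSO replicate 2, 878 on TBBD replicate 1 and 810 on TBBD replicate 2. With limma 0 of the 11 streak markers passed between the numbers and 0 between the treatments. With TBBD all 11 had a lower mean, at a median of -0.75 in replicate 1 and -0.11 in replicate 2, and 10 of 11 stem cell markers were lower and 12 of 12 endoderm markers higher in mean, 0 past the threshold in either list. Mesenchyme markers were higher in 9 of 12, again with 0 past it. TBBD minus DMSO had a median of -0.39 over streak and -0.21 over stem cell markers. It was 0.24 over endoderm and 0.12 over mesenchyme markers, beside -0.0035 over all genes. With the replicate number as a second term, 7 of 11 streak and 4 of 11 stem cell markers had unadjusted limma p-values under 0.05. So did 3 of 12 endoderm and 2 of 12 mesenchyme markers, beside 2.66% of all genes, and 0 genes passed after adjustment. The part of these markers in the values of FGF4, FGF17, SPRY4, ETV4 and IL17RD was not tested. Without DMSO replicate 1, TBBD minus DMSO became 0.13 for FGF4 and 0.13 for FGF17. That fit sets both TBBD arrays against DMSO replicate 2 alone, so these values also hold the difference between the replicate numbers. Within replicate 2 TBBD minus DMSO was 0.014 for FGF4 and 0.11 for FGF17.

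Genes with patterns like the most variable FGF genes were looked up by the root mean square difference of the 4 values after centring each gene on its mean, among 16819 genes with at least 3 probesets. With 4 arrays such likeness is a description only. The nearest to FGF19 were SPP1, the osteopontin gene, at 0.097, HPGD, which breaks down prostaglandins, at 0.11, and GPC4, a heparan sulphate proteoglycan, at 0.16. SPP1 read 9.68 and 9.80 on DMSO and TBBD replicate 1 and 7.95 and 7.63 on DMSO and TBBD replicate 2. The nearest to FGF2 were the netrin receptor gene UNC5B at 0.021, USP53 at 0.023 and the bicarbonate transporter gene SLC4A7 at 0.031.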

How the data were processed

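Total RNA of 4 embryoid body samples was extracted with Trizol and measured on Affymetrix Human Gene 1.0 ST arrays, per the labels' protocols. The deposited values are log2 signals per probeset, made by the authors with RMA per the submitters' processing notes. The genome build and the RMA settings are not stated in any source used here, so no coordinates are printed. Of 247312 probesets, 277 with a placeholder cell were left out, none of them of the 10 genes. Values of probesets with 1 symbol were averaged per gene, after 2528 older symbols were updated through a RefSeq gene table. Some listed genes were not analysed here.

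Both comparisons used limma 3.58.1 in R 4.3.3 (lmFit and eBayes, two-sided, Benjamini-Hochberg over all 18640 genes, threshold 0.05), one with the group and one with the replicate number as the only term. Tables and plots used Python 3.11.15, pandas 2.3.3 and matplotlib 3.10.9. On simulated arrays of 18640 genes the group fit called 29.9% of genes changed 2-fold and 88.1% changed 4-fold, and the number fit called 94.0% and 100.0%. The simulated arrays varied independently, without the deviation that same-numbered arrays share in the measured data, so these shares may not hold there. The number of arrays limits the precision.

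The genes and lists, and the marker lists of stem cells, streak, endoderm, mesenchyme and olfactory receptors, were chosen with earlier results of these data known. Named genes are the 10 FGF genes, up to 4 called genes per pathway list and comparison (or the 2 with the smallest p), the 2 brightest of each marker list, and the 3 nearest patterns of the 2 most variable FGF genes. Further markers, KLB and genes named for DMSO replicate 1 were chosen after their values were seen. Alternatives covered normalization, probeset summary, dim genes, variance model, the other factor as a term, each array left out and thresholds.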

Additional observations from a re-analysis of the deposited data

How the results depend on the processing

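TBBD minus DMSO called 0 FGF genes under every alternative tried, and 0 genes in all except under the relaxed criterion (unadjusted limma p under 0.05 with at least a 1.5-fold difference), which held 20 genes and 0 FGF genes. The median over the FGF genes lay between -0.18 and 0.13 with 1 array left out. Those fits leave treatment and number unequal by construction and assume that a lone array varies like the others. With the median over probesets TBBD minus DMSO changed sign for FGF2 (-0.18), FGF19 (-0.065), FGFR1 (0.013) and FGFR4 (0.019), and with only the brighter probesets for FGF19 (-0.030). With 1 array left out it ran from -0.43 to 0.44 for FGF2, -0.49 to 0.13 for FGF4, -0.044 to 0.10 for FGF8, -0.33 to 0.13 for FGF17, -1.0045 to 1.04 for FGF19, -0.24 to 0.20 for FGFR1, -0.18 to 0.57 for FGFR2 and -0.28 to 0.34 for FGFR3.

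Between the replicate numbers 1001 genes passed, 1798 at an adjusted p under 0.1, and from 368 to 685 with 1 array left out. The FGF count of 2 became 4 at an adjusted p under 0.1 and 1 or 2 with 1 array left out, when the FGF median ran from -0.33 to -0.077. The sign turned for FGF8 (-0.10 with the median over probesets, -0.069 with the brighter probesets) and for DUSP6 (-0.14 and -0.067). With 1 array left out DUSP6 ran from -0.036 to 0.14 and FGFR3 from -0.017 to 0.43. For the sign changes and the counts at other probeset summaries the cause was not tested. FGF19 stayed past the threshold under every alternative tried, and FGFR2 did except without DMSO replicate 1, DMSO replicate 2 or TBBD replicate 2.

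Same-numbered arrays deviated together (r = 0.566 over genes), but with 2 pairs the labels do not settle a pairing. With the replicate block in the treatment fit, 0 FGF genes passed. With treatment as the block in the number fit, 653 genes and 2 FGF genes passed.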
